A study of Sus scrofa domesticus with 4 samples.

Results

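Genes that set the calcium signal and the excitability of uterine smooth muscle were followed in pig myometrium cultured with or without adiponectin, a hormone of fat tissue. The members were the oxytocin receptor OXTR, the gap junction protein GJA1, the calcium pumps ATP2A2 and ATP2B1, the pump inhibitor PLN, the calcium release channels RYR2, RYR3 and ITPR1, and the potassium channel subunits KCNMA1 and KCNMB1. A probe was a member when the RefSeq accession in the scanner files belonged to 1 of these 10 genes. By that rule 21 of 43603 probes were members, and they covered 7 genes: 6 probes each for ATP2A2 and PLN, 5 for ATP2B1 and 1 each for OXTR, GJA1, KCNMA1 and KCNMB1. No probe was matched to RYR2, RYR3 or ITPR1, which are not analysed here. Probes of a gene are numbered from the brightest (probe 1) to the dimmest.

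The tissue came from 4 mature gilts, Large White x Polish Landrace, aged 7-8 months and weighing 120 to 130 kg, and pregnant for 15 to 16 days. Myometrial slices of 100 mg were first kept in medium 199 for 2 h. They then spent 24 h in culture, either untreated or with 10 µg/ml adiponectin. Each of 4 Agilent arrays compared 1 treated with 1 untreated RNA in 2 colours. The treated RNA carried Cy5 on arrays 1 and 3 and Cy3 on arrays 2 and 4, per the dye fields of the labels, whereas the labelling text describes only Cy5 for treated RNA; the authors' series table has the signs that the dye fields give. The labels tie no array to an animal, so every p-value rests on the spread from array to array, which may be partly technical. In the fit the spread of each probe was also drawn toward that typical of all tested probes. Explants hold every cell type of the uterine wall slice, and fewer cells of a type cannot be told apart from less RNA per cell.

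Oxytocin acts on a receptor coupled to the Gq protein; phospholipase C then forms inositol trisphosphate, which opens ITPR1 and releases calcium from the sarcoplasmic reticulum. Ryanodine receptors are further release channels of this store, ATP2A2 (SERCA2) pumps calcium back into it, and phospholamban (PLN) restrains ATP2A2 while it is not phosphorylated. ATP2B1 (PMCA1) exports calcium through the plasma membrane. Large-conductance potassium channels, formed by the pore subunit KCNMA1 and the calcium-sensitising subunit KCNMB1, oppose depolarisation, and gap junctions of GJA1 (a connexin) couple the muscle cells. In pregnancy the myometrium is kept quiescent, and OXTR and GJA1 are known to increase toward labour.

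None of the tested members passed the test after adjustment for multiple testing. The member values farthest from 0 were those of ATP2B1, where 3 of 5 probes stood between 0.49 and 0.60 on the log2 scale and had the higher treated signal on all 4 arrays, while the brightest probe of the same gene stood at 0.07. OXTR stood at 0.26 ± 0.15 (moderated SE, n = 4 arrays), PLN at 0.25 ± 0.18 and GJA1 at 0.24 ± 0.21. ATP2A2 stood at -0.22 ± 0.17 and KCNMB1 at -0.24 ± 0.18. For each of these 5 genes the 95% interval included 0. The plot of probe ratios shows these values array by array.

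**Figure D1:**
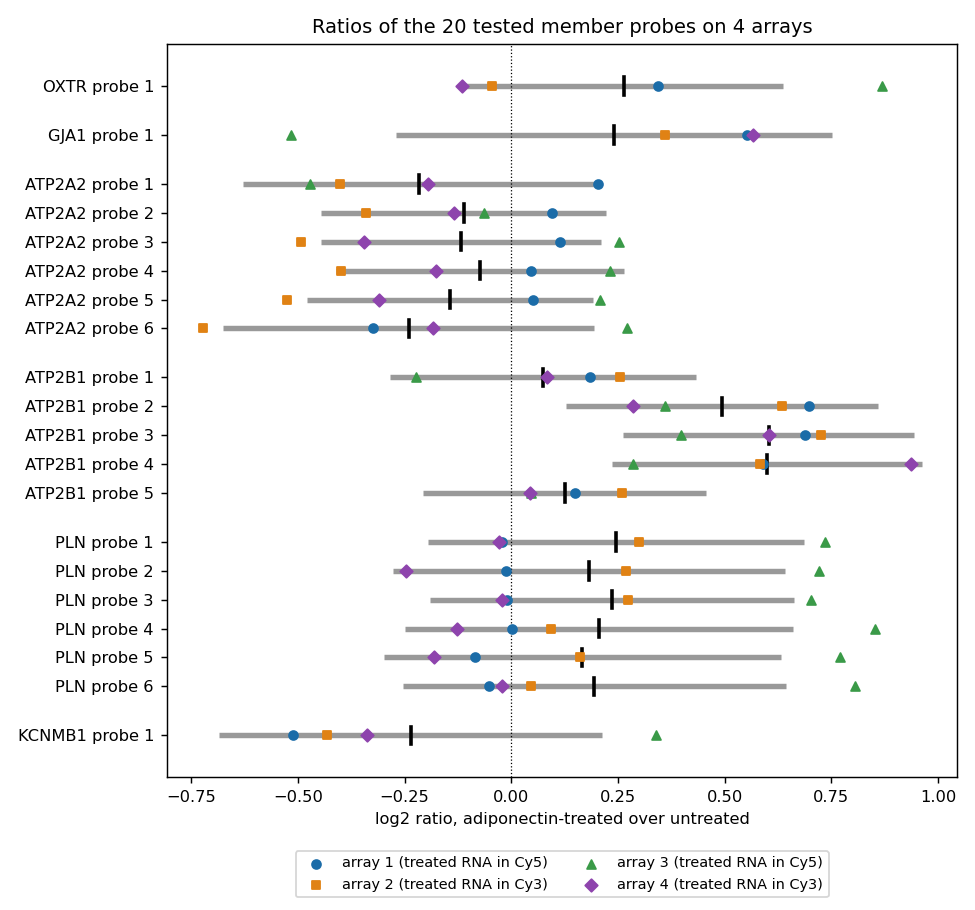
Log2 ratio of treated over untreated signal (x axis) for each of the 20 tested member probes (rows, brightest probe of a gene first), with 1 point per array, the limma log2 change as a black bar and its 95% interval in grey. ATP2B1 probes 2, 3, 4 and 5 lie to the right of 0 on all 4 arrays, and the 6 PLN probes lie between 0.70 and 0.85 on array 3 and nearer to 0 on the other arrays.

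A ratio is the log2 of treated over untreated processed signal on 1 array, and a log2 change is the limma coefficient over the 4 arrays with a dye term for each probe. A probe entered the test if either the treated or the untreated channel was well above background on 3 or more arrays, and if all 4 arrays gave a ratio. That held for 22082 probes, among them 20 member probes of 6 genes. KCNMA1 did not meet it. With Benjamini-Hochberg adjustment over the 22082 probes, 0 member probes passed at an adjusted p of 0.05, where 0% of all tested probes did (smallest limma adjusted p = 0.856). At an unadjusted limma p under 0.05, 3 of 20 member probes were higher with treatment, all of ATP2B1, against 3.78% of all tested probes, and 0 were lower, against 1.92%. A ratio above 0 on all 4 arrays was found for 4 member probes, again all of ATP2B1, against 6.37% of all tested probes, and a ratio below 0 on all 4 arrays for 0 member probes, against 6.23%. Probes of 1 gene read the same RNA, so these are not 3 or 4 separate results.

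The median log2 change was 0.17 over the 20 member probes, beside -0.0023 over all tested probes. With 1 probe per gene it was 0.16 over the 6 member genes, beside -0.021 over the 2132 named tested genes. Values above 0 were held by 13 of the 20 probes, beside 49.5% of all tested probes. They were held by 4 of the 6 genes, beside 45.6% of the named tested genes. Of the 13 probes, 6 were of PLN and 5 of ATP2B1, so they are not 13 separate results. The median 95% interval of a tested probe reached 0.39 to either side, a 1.31-fold difference. By array, 46.1% to 51.0% of spots were well above background in Cy3 and 54.9% to 63.1% in Cy5; 0 spots were saturated. Pearson's r between the ratios of array pairs, across tested probes that are not independent replicates, lay between -0.31 (arrays 2 and 3) and 0.25 (arrays 2 and 4). These ratios keep the dye offset of each probe, which has the same sign on arrays 2 and 4 and opposite signs on arrays 2 and 3. For arrays 1 and 3, where it also has the same sign, r was -0.05. So r does not measure agreement in the treatment response alone.

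**Figure D2:**
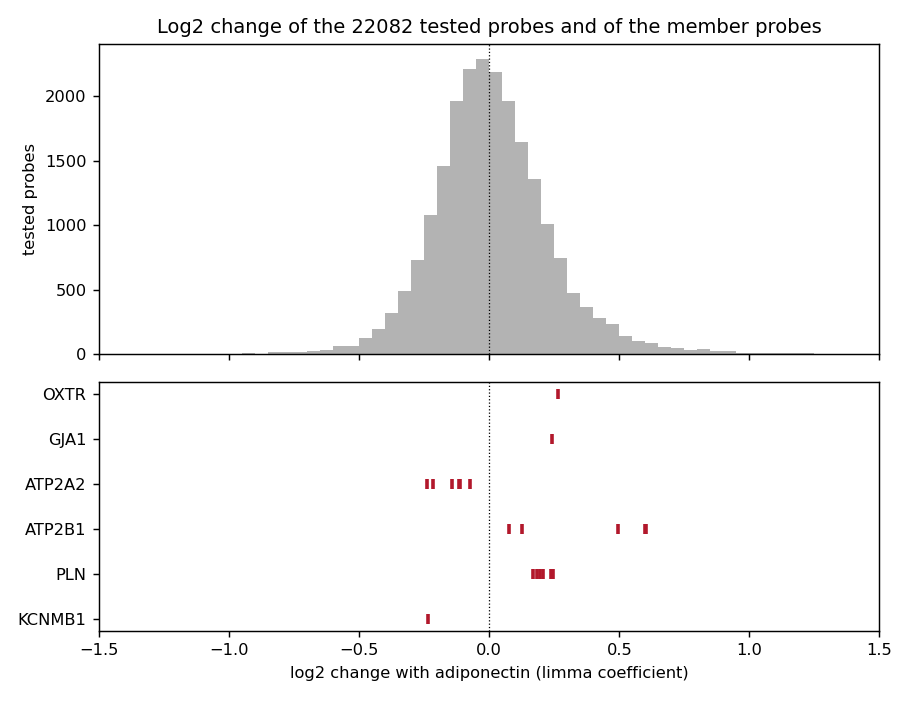
Distribution of the log2 change over the 22082 tested probes (upper panel, number of probes per bin; 7 probes beyond 1.5 on either side are not drawn) and the log2 change of each tested member probe (lower panel, 1 tick per probe). Member probes span -0.24 (ATP2A2) to 0.60 (ATP2B1), and the 5 ATP2B1 ticks fall into a pair near 0.1 and a group of 3 near 0.5 to 0.6.

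OXTR, the receptor through which oxytocin contracts the uterus, was read by a single probe (A_72_P088746) that was well above background in both channels of every array. Its untreated signal was 21175, 22379, 11721 and 13378 on arrays 1 to 4, and its treated signal was 26882, 21684, 21410 and 12348. The means were 17163 ± 5393 untreated and 20581 ± 6038 treated (SD, n = 4), and the ranges overlapped. The untreated tissue was brighter on arrays 1 and 2 than on arrays 3 and 4, and the widest gap between the conditions came on array 3, which had the lowest untreated signal.

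The OXTR ratios were 0.34, -0.05, 0.87 and -0.12, above 0 on 2 of 4 arrays. Both arrays with a ratio above 0 carried the treated RNA in Cy5, and the probe's dye coefficient, its excess of Cy5 over Cy3 at equal amounts, was 0.34. The log2 change was 0.26 (95% interval -0.11 to 0.64, or 0.93-fold to 1.56-fold; limma adjusted p = 0.862). Without array 3 it was 0.13. With normexp background correction and loess it was 0.35 (limma adjusted p = 0.959). In that fit OXTR and 3 ATP2B1 probes had an unadjusted p under 0.05, all higher, where 3.43% of all probes tested were higher and 1.69% lower.

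GJA1, which forms the gap junctions that synchronise contraction, gave untreated signals of 248, 280, 223 and 120 and treated signals of 364, 359, 156 and 178 on arrays 1 to 4. Treated tissue was the brighter on arrays 1, 2 and 4 and the dimmer on array 3. The ratios were thus 0.55, 0.36, -0.52 and 0.57. The log2 change of 0.24 (95% interval -0.27 to 0.75, limma adjusted p = 0.891) depended on single arrays. It was 0.51 ± 0.17 without array 3 (limma adjusted p = 0.424) and -0.03 without array 1, when array 3 alone held treated RNA in Cy5.

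Of the store genes, ATP2A2 returns calcium to the sarcoplasmic reticulum after a contraction. Its brightest probe (A_72_P303154) gave untreated signals of 4176, 7480, 5646 and 3012 and treated signals of 4810, 5659, 4072 and 2629. Treated tissue was dimmer on 3 of 4 arrays, and signals of both conditions were highest on array 2 and lowest on array 4. The ratios were 0.20, -0.40, -0.47 and -0.20, and the log2 change was -0.22 (95% interval -0.63 to 0.19, limma adjusted p = 0.879).

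All 6 ATP2A2 probes had a log2 change below 0, from -0.24 to -0.07, with limma adjusted p between 0.872 and 0.948. They differed on array 3, where probe 1 stood at -0.47 and probe 2 at -0.06 while the other 4 stood between 0.21 and 0.27. On array 2 all 6 were below 0, between -0.72 and -0.34, and on array 4 between -0.35 and -0.14. The mean log2 change over the 6 probes was -0.15, and without array 3 that of probe 1 was -0.05.

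PLN restrains ATP2A2. The brightest probe (A_72_P583001) gave untreated signals of 4060, 3815, 2991 and 4472 and treated signals of 3997, 4692, 4977 and 4385. Its treated signals varied less between arrays (4513 ± 421, SD, n = 4) than its untreated ones (3834 ± 624), and the lowest untreated signal was again on array 3. Probe 5 of PLN went the other way, with an SD of 233 treated and 202 untreated. The ratios of the brightest probe were -0.02, 0.30, 0.73 and -0.03, with a log2 change of 0.25 (95% interval -0.20 to 0.69, limma adjusted p = 0.870).

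Over the 6 PLN probes the ratios lay between 0.70 and 0.85 on array 3, between 0.05 and 0.30 on array 2, between -0.08 and 0.00 on array 1 and between -0.25 and -0.02 on array 4. The SD over the probes within an array was 0.03 to 0.11, whereas the SD of a single probe over the arrays was 0.34 to 0.44. The arrays therefore differed by more than the probes did. The log2 change was 0.17 to 0.25 over the probes, and without array 3 the 6 values were between -0.05 and 0.06.

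ATP2B1, the plasma membrane calcium pump, had an SD over the probes within an array of 0.22 to 0.38 and an SD of a single probe over the arrays of 0.10 to 0.27. Probe 1 (A_72_P115721), which stands for the gene as the brightest, gave untreated signals of 2187, 1035, 1843 and 1429 and treated signals of 2483, 1236, 1577 and 1513. Its ratios were 0.18, 0.26, -0.22 and 0.08, and its log2 change was 0.07 (95% interval -0.29 to 0.43, limma adjusted p = 0.950). It was 0.18 without array 3, -0.03 without array 1 and 0.18 with normexp and loess.

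The next 3 probes by brightness had larger ratios than probe 1 on every array. Probe 2 (A_72_P455897) gave untreated signals of 1167, 569, 916 and 824 and treated signals of 1891, 883, 1175 and 1004. Probe 3 (A_72_P619440) gave 1090, 463, 787 and 562 untreated and 1757, 766, 1036 and 853 treated. Probe 4 (A_72_P223312) gave 1064, 531, 801 and 415 untreated and 1601, 795, 976 and 795 treated. In each of these probes the treated signal was the higher on all 4 arrays, although the ranges of the conditions overlapped.

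The ratios on arrays 1 to 4 were 0.70, 0.63, 0.36 and 0.28 for probe 2, with a log2 change of 0.49 ± 0.15 (1.41-fold, limma adjusted p = 0.856). For probe 3 they were 0.69, 0.73, 0.40 and 0.60, with a log2 change of 0.60 ± 0.14 (1.52-fold, limma adjusted p = 0.856). For probe 4 they were 0.59, 0.58, 0.29 and 0.94, with a log2 change of 0.60 ± 0.15 (1.51-fold, limma adjusted p = 0.856). The 95% intervals were 0.13 to 0.86, 0.26 to 0.94 and 0.24 to 0.96 in that order. Leaving out any 1 array kept the 3 values between 0.41 and 0.69.

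Probe 5 (A_72_P581537) had ratios of 0.15, 0.26, 0.05 and 0.04 and a log2 change of 0.12 ± 0.13 (limma adjusted p = 0.907). Probes 2, 3 and 4 thus had larger ratios than both probe 1 and probe 5 on every array. This grouping was seen in the values and was not tested. The mean over the 5 probes was 0.38, against 0.07 for the brightest, so the choice of the probe sets the value given for the gene. All 5 probes are assigned to the same transcript accession, and the positions of the probes in it were not analysed here.

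The large-conductance potassium channel was read by 1 probe for each subunit. KCNMB1, the smooth muscle subunit that raises the channel's calcium sensitivity, gave untreated signals of 204, 208, 94.3 and 152 and treated signals of 143, 154, 119 and 120. The treated signal was the lower on arrays 1, 2 and 4 and the higher on array 3, where the untreated signal was the lowest of all. The ratios were -0.51, -0.43, 0.34 and -0.34, and the log2 change was -0.24 (95% interval -0.68 to 0.21, limma adjusted p = 0.878). It was -0.45 ± 0.17 without array 3 (limma adjusted p = 0.443), -0.02 without array 1 and -0.098 with normexp and loess.

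KCNMA1, the pore subunit, was well above background on arrays 1 and 2 in both channels and on neither channel of arrays 3 and 4. Its signals on arrays 1 and 2 were 41.8 and 34.9 untreated and 30.2 and 39.7 treated, with ratios of -0.47 and 0.19. On arrays 3 and 4 it was not well above background, and the ratios of -1.07 and -1.28 there rest on signals of 7.90 to 20.9. It was not tested, and no direction is given for it.

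**Figure D3:**
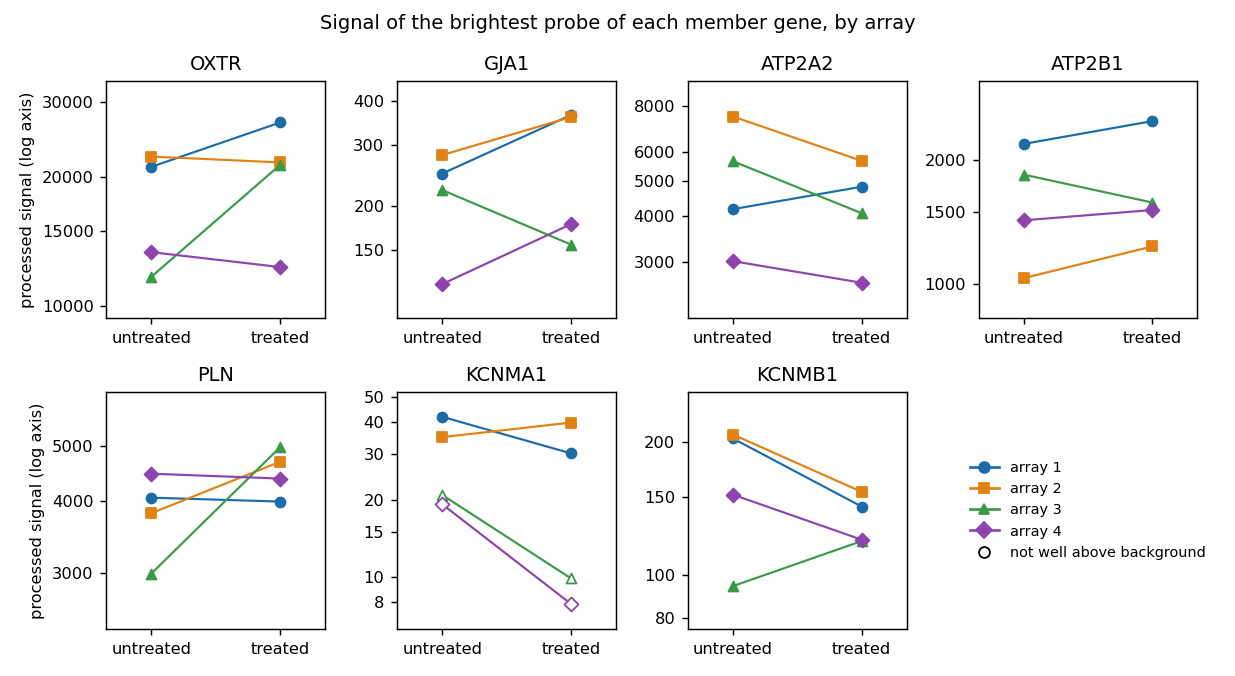
Processed signal (y axis, log scale, arbitrary intensity units) of the brightest probe of each of the 7 member genes in untreated and treated tissue, with a line for each array and open symbols where the spot was not well above background. On array 3 OXTR, PLN and KCNMB1 go up, each from its lowest untreated signal among the 4 arrays, while GJA1 goes down from 223 to 156.

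Without array 3 the number of member probes with an unadjusted limma p under 0.05 was 5 in place of 3, the additions being GJA1 (higher) and KCNMB1 (lower), where 5.88% of all tested probes were then higher and 4.93% lower. Without array 2 the number was 2, both of ATP2B1, where 621 of the 22082 tested probes were higher and 304 lower. Without array 4 it was also 2 of ATP2B1, where 431 tested probes were higher and 265 lower. Without array 1 it was 3, with 2 of ATP2B1 and probe 1 of PLN, where 1070 were higher and 636 lower. The member probes counted in these 3 omissions were all higher. Member probes with 1 sign on every array used numbered 4 with all 4 arrays. They numbered 6, 4, 8 and 5 without arrays 1, 2, 3 and 4 in that order. A shared sign is easier to reach on 3 arrays than on 4. The share of all tested probes was not computed for 3 arrays, so no result is read from these counts. No member probe passed after adjustment in any omission.

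The other genes of the pathway were taken from 7 lists of related genes. Of the tested genes reported here 0 passed in either direction (0% of all tested probes did), and 0 had an unadjusted limma p under 0.05. Among receptors of contractile or relaxing agonists and the Gq step, 8 of 14 genes were tested, 6 above 0 and 2 below, with a median log2 change of 0.07. OXT, the gene of oxytocin itself, stood at 0.14 and the Gq subunits GNAQ and GNA11 at 0.07 and -0.007, the latter at 0.05 with normexp and loess. The endothelin receptors EDNRA and EDNRB stood at 0.26 and 0.15 and the muscarinic receptor CHRM3 at 0.06, or -0.04 without array 4.

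Of 10 connexins and partners other than GJA1, 2 were tested and both were above 0. GJC1, another connexin, stood at 0.29 ± 0.14 with ratios of 0.48, 0.24, 0.55 and -0.10. GJA4, a connexin of blood vessels, stood at 0.15 ± 0.42, with -1.40 on array 2 and 2.02 on array 3, and was -0.39 without array 3.

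Among 18 other store genes, 7 were tested, 2 above 0 and 5 below, with a median of -0.23. Both parts of store-operated calcium entry, the store sensor STIM1 and the channel ORAI1, had values below 0, at -0.23 ± 0.18 and -0.29 ± 0.19. Leaving out 1 array put STIM1 between -0.39 (without array 3) and -0.078 (without array 1) and ORAI1 between -0.51 (without array 3) and -0.079 (without array 1), and normexp and loess gave -0.075 and -0.15. SLN, a small relative of PLN, stood at -0.23 and was well above background on 3 arrays untreated and 2 treated; it was -0.45 without array 2, -0.0027 without array 4 and -0.11 with normexp and loess. The ryanodine receptor RYR1 stood at 0.004 ± 0.25, with -0.95 on array 2 and 0.96 on array 3. The calcium-binding chaperone CALR stood at 0.21 and the ryanodine receptor partner FKBP1A at -0.15.

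Calcium entry and other ion channels were thinly covered. Of 19 genes of membrane calcium transport 2 were tested, with CACNA2D1, a subunit of voltage-gated calcium channels, at 0.09, and the cation channel TRPC4 at -0.02. Of 21 other potassium channel genes 2 were tested, KCNN3 at -0.12 ± 0.17 and KCNA5 at -0.05 ± 0.13. Of 9 genes of sodium and chloride transport 1 was tested, the sodium pump subunit ATP1B1 at 0.04. The interval of each of these 5 genes included 0, with limma adjusted p between 0.926 and 0.989.

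Calmodulin and its effectors gave 7 tested genes of 13, 3 above 0 and 4 below, with a median of -0.06. The calmodulin gene CALM3 stood at 0.16, but its 3 probes spanned -0.43 to 0.16. MYLK, the kinase that switches on myosin, stood at 0.04 ± 0.30, with -0.73 on array 1 and 0.95 on array 3. The kinase subunits CAMK2D and CAMK2G stood at -0.06 and -0.20 and the calcineurin subunits PPP3CA and PPP3CB at 0.01 and -0.07.

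Smooth muscle markers were bright in every culture: 7 of 12 had a tested probe, each well above background on all 4 arrays in untreated tissue, and their summed signal was 260571 to 535538 untreated and 303625 to 469687 treated. Their median ratio was -0.50, -0.15, 0.52 and -0.16 on arrays 1 to 4, with the same signs as KCNMB1 on all 4 arrays (-0.51, -0.43, 0.34 and -0.34) and, like OXTR and PLN, its highest value on array 3. OXTR differed from the marker median most on array 1, at 0.34 against -0.50. The median log2 change of the muscle markers was -0.08, with 3 of 7 above 0. The part of muscle content in the member values was not tested.

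Ratios of markers of other cell types also varied from array to array, and they keep the dye offset of each probe. Epithelial markers, 3 tested of 6, had median ratios of -0.09, 1.24, -0.95 and 0.98, with summed signals of 201 to 1538 untreated and 190 to 4683 treated. These medians were below 0 with treated RNA in Cy5 and above 0 with it in Cy3. They therefore do not measure the treatment difference alone. In the fit with a dye term their median log2 change was 0.43, with 2 of 3 above 0. There CDH1 stood at -0.01 ± 0.16, with array ratios of -1.11, 1.32, -0.95 and 0.69. GJA1 and the epithelial median both had their lowest ratio on array 3, as did the stromal median and probe 1 of ATP2A2 and of ATP2B1. On array 1 GJA1 stood at 0.55 and the epithelial median at -0.09. Macrophage markers, 5 tested of 8, had median ratios of 0.55, -0.23, 1.47 and 0.90. Their summed signals were 1214 to 2404 untreated and 1252 to 3734 treated, and their median log2 change was 0.65, with 5 of 5 above 0. Of these, 3 genes were higher at an unadjusted limma p under 0.05 (3.78% of all tested probes were) and 0 after adjustment. Stromal markers, 3 tested of 6, stood at 0.47, -0.28, -0.34 and -0.16, with sums of 46631 to 65056 untreated and 51012 to 58441 treated. The stromal median log2 change was -0.13, with 0 of 3 above 0. Endothelial markers, 5 tested of 8, stood at -0.003, -0.29, 0.07 and 0.47, with sums of 6985 to 9694 untreated and 7427 to 9533 treated. Their median log2 change was 0.14, with 3 of 5 above 0. In this list 1 gene, ENG at -0.45, was lower at an unadjusted limma p under 0.05 (1.92% of all tested probes were) and 0 after adjustment. Of 6 lymphocyte markers 1 was tested, with a log2 change of 0.22 ± 0.21, and the other 5, CD3E among them, did not pass the filter on dim probes. Of 6 pericyte markers only RGS5 had a probe, with a log2 change of 0.63 ± 0.30 (limma adjusted p = 0.856). The RGS5 ratios were -0.03, 1.89, 0.51 and 0.14, highest on array 2, where its untreated signal was lowest (396). The part of these cell types in the member values was not tested.

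**Figure D4:**
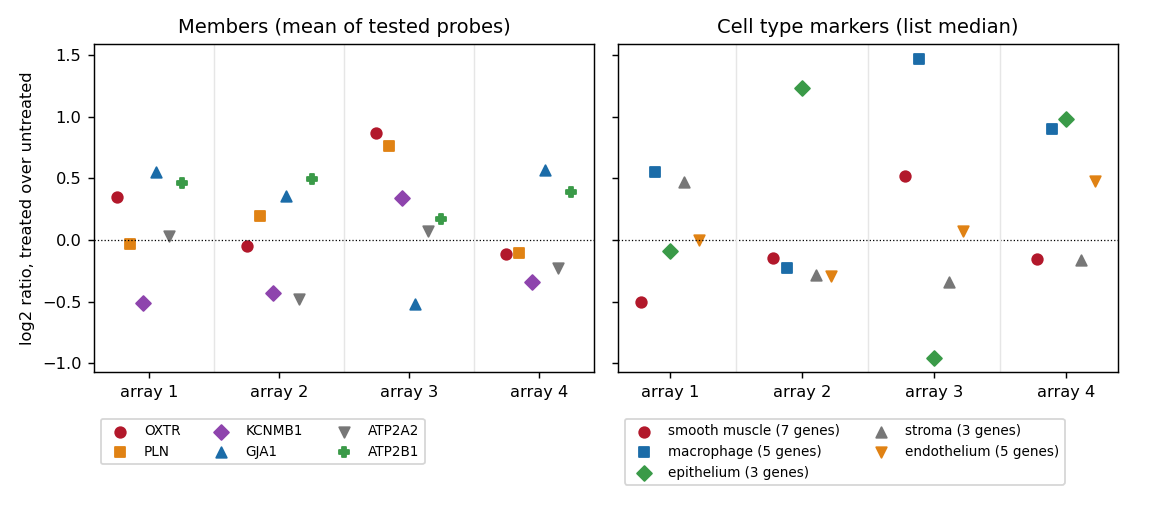
Log2 ratio of treated over untreated signal (y axis) on each array (x axis) for the 6 tested member genes (left panel, mean of the tested probes of a gene) and for 5 lists of cell type markers (right panel, median over the tested genes). On array 3 OXTR and PLN stand at 0.87 and 0.76 and the smooth muscle list at 0.52. GJA1, the epithelial list and the stromal list stand at -0.52, -0.95 and -0.34 there. The ratios keep the dye offset of each probe.

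Likeness to OXTR was described by the root mean square difference of the 4 array ratios, over 2131 other named genes. The nearest were C4BPA (0.15), SLC25A24 (0.16), SLC7A7 (0.17), SEC61A1 (0.18) and C14H1orf198 (0.18). C4BPA had ratios of 0.43, -0.21, 0.74 and -0.30, and a log2 change of 0.17. Ratios of single arrays keep the dye offset of each probe. For OXTR the dye coefficient was 0.34, beside a log2 change of 0.26. The measure therefore does not describe likeness in the treatment response alone. Of the members, PLN ranked 37 (0.26), and KCNMB1 (0.55), ATP2B1 (0.58), ATP2A2 (0.70) and GJA1 (0.80) were far lower in that order. With 4 arrays and so many genes, near values are found for any gene, so the ranks are a description.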

How the data were processed

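The 4 arrays, with 1 file each, hold 1 treated and 1 untreated RNA in 2 colours. The deposited log10 ratio of Cy5 over Cy3 and the processed signal intensity of both dyes came, per the file headers, from Agilent Feature Extraction 10.7.3.1, which removed background and normalised the dyes. The deposited series table holds log2 ratios whose processing is not given in the sources used here. Against the scanner ratios its slopes were 1, -1, 1 and -1 on arrays 1 to 4, which gives it a log2 scale and the direction treated over untreated. Among probes well above background in both channels, 100% on each array lay within 0.01 of the scanner ratio of that sign. No further centring was therefore seen. The column medians were -0.10, 0.13, -0.14 and 0.16. The genome build is not given, so no coordinates are printed.

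The log10 ratios were put on the log2 scale and turned to treated over untreated. Control spots, spots with an outlier mark and ratios of exactly 0 with neither channel significant were left out, and spots of a probe were averaged. Turned ratios of single arrays keep the dye offset of the probe. Symbols came from RefSeq accessions looked up in RefSeq's gene table of Sscrofa11.1, used for names only: 6700 of 7125 RefSeq probes received 1 of 3029 symbols. The brightest tested probe stood for a gene. Limma 3.58.1 under R 4.3.3 (lmFit, eBayes, two-sided) was fitted on all tested probes with treatment and dye coefficients, and tested on simulated data. Errors after ± on a log2 change are moderated SEs. They combine the spread of the probe left after the treatment and dye terms (2 residual degrees of freedom) with that of all tested probes (3.72 prior degrees of freedom). Slide 1 held arrays 1 to 3 and slide 2 held array 4, each scanned on its own, so both conditions were on each slide.

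The members, lists and alternatives were chosen with earlier results of these data known. Named pathway genes were the first 6 tested genes of each list in its written order and the gene with the smallest p. Some genes of these lists are not reported here and are left out of the lists' counts. Marker lists are given as summaries. Signals of different probes are not set against each other as levels of genes.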

Additional observations from a re-analysis of the deposited data

Results flagged for a closer look

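Among 88 sets of 4 array values (ratios of the named probes and signals of the members), 4 had 1 array far from the other 3 by Dixon's test, where chance flags about 1 in 20, or 4.4. PLN probe 6 had a ratio of 0.80 on array 3, while its other ratios were -0.05 to 0.05; the other 5 PLN probes were also highest on array 3. EDNRA stood at -0.42 on array 1, and its other ratios were 0.40 to 0.56. FKBP1A stood at 0.18 on array 3 and between -0.30 and -0.24 elsewhere, and PPP3CA at -0.33 on array 3 and between 0.10 and 0.18 elsewhere.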

How the results depend on the processing

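The main fit was paired by array, because each ratio sets the 2 conditions of 1 array against each other. The number of member probes past the threshold was 0 in every other fit run. Under normexp and loess 0 of 20 member probe values changed sign; median centring, the authors' series table and the fit without a dye term leave the values nearly as they are by construction. With slide as a term, which equals leaving out array 4, and in the other settings these values reversed: CHRM3 -0.045, GJA4 -0.24, RYR1 -0.25, CACNA2D1 -0.026, CAMK2D 0.042 and PPP3CB 0.049 with slide; GNA11 0.052, TRPC4 0.039 and KCNA5 0.024 with normexp and loess; KCNA5 0.067, CALM3 -0.21 and CAMK2D 0.0063 as means of all tested probes. Leaving out 1 array gave 0 to 12 probes called higher (12 without array 3, no member among them) and 0 lower. It gave 4 to 8 member probes of 1 sign, which is easier to reach on 3 arrays than on 4. With 3 arrays, a lone array of a dye orientation weighs as much as the other 2 together. The omissions turned the sign of these: GJA1 -0.026 to 0.51, ATP2B1 probe 1 -0.028 to 0.18, PLN probe 2 -0.0010 to 0.37, probe 4 -0.0080 to 0.42, probe 5 -0.047 to 0.38 and probe 6 -0.020 to 0.41; GNA11 -0.16 to 0.14, CHRM3 -0.27 to 0.38, GJA4 -0.39 to 0.70, RYR1 -0.25 to 0.26, CACNA2D1 -0.026 to 0.21, TRPC4 -0.19 to 0.15 and KCNN3 -0.29 to 0.047; KCNA5 -0.095 to 0.0046, ATP1B1 -0.12 to 0.20, MYLK -0.38 to 0.46, CAMK2D -0.20 to 0.072, PPP3CA -0.093 to 0.12 and PPP3CB -0.18 to 0.049. The cause was not tested. Dim signal limits KCNMA1, which was not tested.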
